A study of Rattus norvegicus with 65 samples.

Results

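The hypothalamic RNA of rats after Roux-en-Y gastric bypass (RYGB) was set beside that of lean rats, to see how far the operated animals resembled the lean state. The members were the 11 libraries labelled Bypass and the 6 libraries labelled Lean of the experimental period called batch A, 17 of the 65 libraries of the series, with every annotated gene in the comparison. Each library came from the dissected hypothalamus of 1 male Wistar rat. RYGB-treated rats had eaten a high-fat diet for 6 weeks to become obese, were operated so that food passed from a small gastric pouch directly into the jejunum, and could then choose freely between a high-fat and a low-fat diet. The other group is named Lean by the labels and nothing more. Here it is read as the animals that the study lists as fed the low-fat diet alone. The study counts their starting body weight among similar weights of all groups, and its mean was above that of the RYGB-treated rats. The word lean is therefore that of the labels and was not checked against a weight. After 10 h without food, brains of RYGB-treated and sham-operated rats were collected in week 4 from the operation, and the same is assumed for lean rats. Lean rats were not described as operated. Surgery and anaesthesia, the present diet and the weight loss therefore separate the groups and cannot be told apart. The study describes 6 weeks of high-fat feeding before its rats were put into groups, and no other early diet for lean rats. Earlier obesity is therefore not shown to separate the groups. As a further reference, 5 sham-operated obese rats of batch A are shown, which had the same diet as the RYGB-treated rats and an operation without the bypass.

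The hypothalamus holds the neurons that balance food intake against energy stores. In its arcuate nucleus, neurons that make the peptides of the genes Npy and Agrp drive feeding, and neurons with pro-opiomelanocortin (Pomc) and CART (Cartpt) restrain it, under the control of leptin, insulin and gut hormones. Gastric bypass changes the release of gut hormones and lowers body weight and food intake, and the hypothalamus is therefore a tissue in which a return to the lean state is looked for.

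Between 25913006 and 36539941 counts lay on genes in the RYGB libraries (median 29538871) and between 27064139 and 33299946 in the lean libraries (median 31598586.5), so depth was alike. All counts below are normalized counts, which are counts divided by the size factor of each library, unless CPM are named. CPM are counts scaled to the total of the library, after that total was adjusted by edgeR's TMM factor. All 24 listed marker genes of hypothalamic nuclei were found, with a summed level of 66.7 to 401 CPM in RYGB and 80.5 to 278 CPM in lean libraries. Some libraries stood apart. RYGB replicate 6 had 2018 CPM of cortex and hippocampus markers and 4139 CPM of choroid plexus markers, while the other 10 RYGB libraries had at most 514 and 450. Lean replicate 2 had 1869 CPM of cortex and hippocampus markers, against at most 593 in the other 5 lean libraries. RYGB replicate 11 and lean replicate 6 lay farthest out along the second principal component, and RYGB replicate 11 had 49709 CPM of oligodendrocyte markers against at most 25176 in the other 10. Lean replicates 2 and 5 held very little of several hypothalamic neuropeptides, with 2.0 and 27.9 counts of oxytocin (Oxt) against 5171 to 22310 in the other 4. The main counts are given with and without these libraries.

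**Figure D1:**
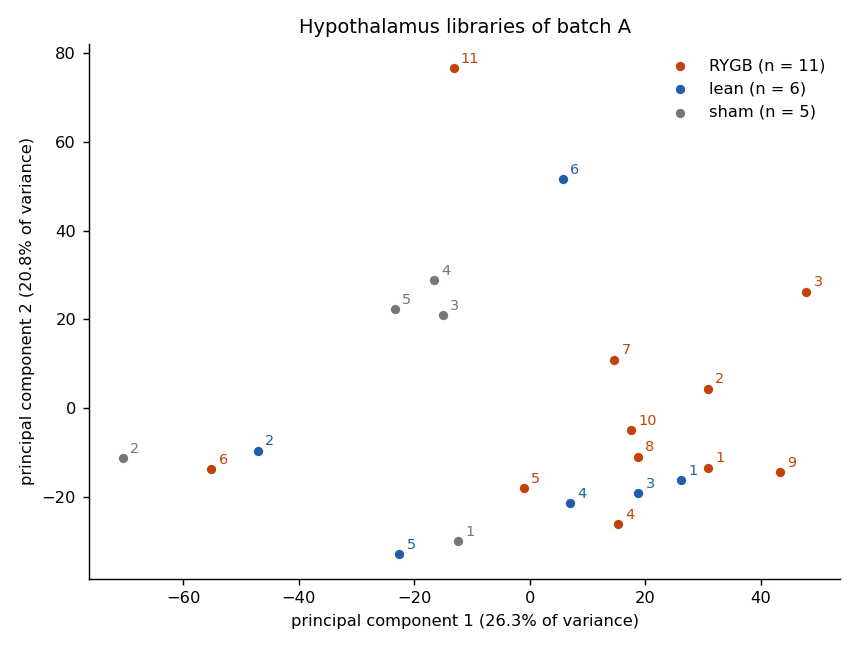
Principal components 1 and 2 of log2(CPM + 1) for the 22 libraries of RYGB, lean and sham animals of batch A, with each point numbered by its replicate. RYGB and lean libraries lie among each other along both axes, with RYGB 6, lean 2 and sham 2 at the low end of component 1 and RYGB 11 and lean 6 at the high end of component 2.

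No gene was regulated in RYGB-treated compared with lean animals. Of 20066 genes tested with edgeR's quasi-likelihood test, 0 (0%) passed a Benjamini-Hochberg adjusted p under 0.05, with or without an absolute log2 fold change over 1, and the smallest adjusted p was 0.163. At an unadjusted p under 0.05, 1213 genes (6.05%) stood out, 489 higher (2.44%) and 724 lower (3.61%) in RYGB. DESeq2 on the same counts called 64 genes (0.319%), of which 60 were lower (0.299%) and 4 higher (0.0199%). The edgeR count was 36 without lean replicate 6, all 36 lower in RYGB, and 0 without any other single animal. It was 38 without both RYGB 11 and lean 6, 7 without these and RYGB 6 and lean 2, and 0 without RYGB 6 and lean 2 or without lean 2 and lean 5.

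The data bounded how far most genes could differ. For 16114 genes (80.3%) the 95% interval of the difference lay within 1 log2 unit on either side of 0, and the median interval reached 0.392 log2 units to each side. The median size of the difference over all genes was 0.122 on the log2 scale. For 1703 genes (8.49%) the interval was wider than 1 log2 unit to each side. A change of that size was not detectable for them at this number of animals. The intervals are not adjusted for the number of genes, so such a change could be missed in other genes as well. An estimate above 1 log2 unit in size was found for 380 genes (1.89%), 174 lower and 206 higher in RYGB, and none of them passed the test.

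The genes with the smallest p on the lower side included a receptor known from the striatum, and none passed the edgeR test. Gpr6, an orphan receptor of striatal projection neurons (chromosome 20, 45813169 to 45815940 of Rnor_6.0), had 116, 167 and 281 counts as the lowest, median and highest RYGB library and 219, 387 and 1086 counts in lean libraries. The 5 sham libraries had 44.9, 175, 103, 480 and 610 counts, so they spread over both groups. Its difference was -1.58 on the log2 scale (SE 0.30, adjusted p 0.163 by edgeR, adjusted p 0.00173 by DESeq2), and 8 of 11 RYGB libraries were below the lowest lean library. Pcp4l1, a small relative of the calmodulin-binding protein PCP4 (chromosome 13, 89542377 to 89565920), ranged from 804 over 2396 to 3612 counts in RYGB and from 3855 over 6091 to 10902 counts in lean animals. The groups did not overlap, with a difference of -1.56 (SE 0.31). The 5 sham libraries had 1095, 743, 5006, 6676 and 7465 counts of Pcp4l1, which covers both groups.

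Dmkn, which encodes the secreted protein dermokine (chromosome 1, 89215266 to 89229696), had 18.3, 34.3 and 53.1 counts in RYGB and 52.0, 96.2 and 193 counts in lean libraries. Only the lowest lean library reached the RYGB range, and the difference was -1.72 (SE 0.30). Its 5 sham libraries, with 16.2, 25.8, 29.5, 75.6 and 83.4 counts, lay in both ranges. Rgs12, a regulator of G protein signalling (chromosome 14, 80975239 to 81069519), had 750, 852 and 1031 counts in RYGB and 942, 1240 and 1826 in lean animals, a difference of -0.59 (SE 0.11). The adjusted p of these 4 genes was 0.163 in edgeR, and between 0.0245 and 0.0350 for Dmkn, Gpr6 and Pcp4l1 without lean replicate 6. The mean log2 level of the striatal markers was also used as a covariate. The differences were then -0.55 for Dmkn, -0.36 for Rgs12, -0.13 for Gpr6 and -0.47 for Pcp4l1. Gpr6 is itself among these markers, and 4 lean libraries lay above every RYGB library in their summed level. Smaller differences with this covariate therefore cannot separate the marker level from the group.

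**Figure D2:**
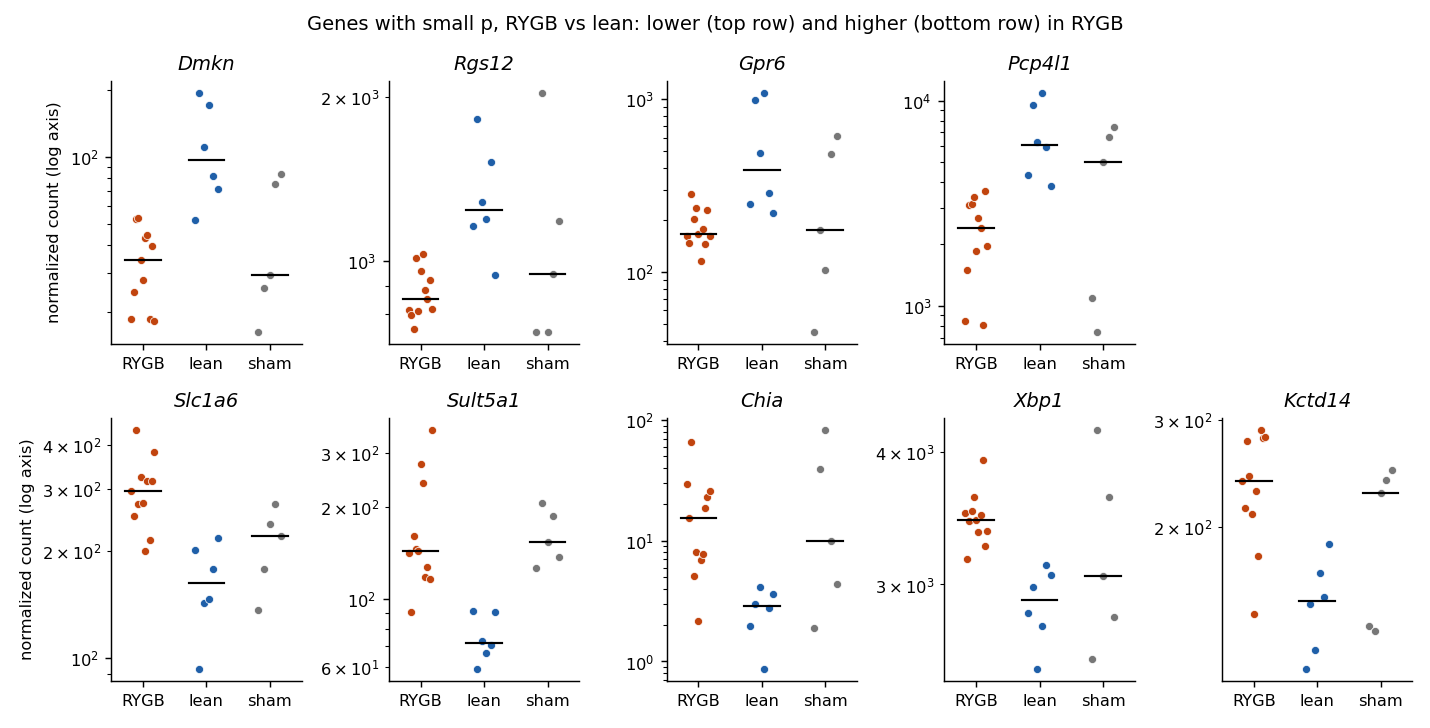
Normalized counts per library (log axis) of 4 genes with small p on the lower side and 5 on the higher side of RYGB vs lean, for 11 RYGB, 6 lean and 5 sham animals, with black bars at the medians. Pcp4l1 and Xbp1 are without overlap between RYGB and lean, and the sham points spread over both groups for most genes.

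On the higher side, Xbp1, the transcription factor that the unfolded protein response of the endoplasmic reticulum (ER) activates (chromosome 14, 85753736 to 85758820), had 3168, 3448 and 3929 counts in RYGB and 2498, 2903 and 3132 in lean libraries. All 11 RYGB libraries were above all 6 lean libraries, with a difference of 0.27 (SE 0.07, 95% interval 0.13 to 0.41). The 5 sham libraries had 2554, 4196, 3056, 3628 and 2799 counts, which lay below, inside and above the RYGB range. The adjusted p of Xbp1 was 0.202 in edgeR and 0.00582 in DESeq2, with a fold change under the threshold of 1 log2 unit in both.

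Such a separation was rare. In 8 of 20066 genes (0.0399%) RYGB and lean libraries did not overlap, 5 with RYGB above (0.0249%) and 3 with RYGB below (0.015%). Besides Xbp1, Pcp4l1 and 4 uncharacterised loci these were Ccpg1, a receptor for the turnover of ER by autophagy, higher by 0.27, and Agmat, which encodes agmatinase, with a difference of -1.53. Both were named after their values were seen. Neither passed the edgeR test, with adjusted p of 0.267 and 0.270, and Agmat was called by DESeq2 (adjusted p 0.0254).

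The other genes of smallest p on the higher side were of several kinds. Slc1a6, a glutamate transporter best known from cerebellar Purkinje cells (chromosome 7, 13730101 to 13758170), had 201, 296 and 441 counts in RYGB and 93.1, 162 and 218 in lean animals, a difference of 0.87 (SE 0.19). Sult5a1, a cytosolic sulfotransferase (chromosome 19, 55952861 to 55978583), had 91.0, 144 and 359 counts in RYGB and 59.1, 71.9 and 91.2 in lean animals, a difference of 1.21 (SE 0.27). Chia, the acidic mammalian chitinase (chromosome 2, 208750348 to 208797388), was low in all libraries, with 2.15 to 66.3 counts in RYGB and 0.867 to 4.18 in lean animals, and 10 of 11 RYGB libraries were above all lean ones. It passed the filter on low counts only through RYGB libraries, 6 of which exceeded 10 counts, and without any of these 6 it was not tested, so its estimate of 2.76 is a description. Kctd14 (chromosome 1, 162418389 to 162424322) differed by 0.65 (SE 0.16), with medians of 238 and 151 counts. For Sult5a1 and Kctd14 the sham medians of 154 and 228 counts were above the lean medians and within the RYGB range. Adjusted p ran from 0.182 to 0.202 in edgeR for Slc1a6, Sult5a1 and Kctd14.

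Markers of the striatum were lower in RYGB as a whole list. All 13 of its tested markers had lower estimates in RYGB, each at an unadjusted p under 0.05 (724 of all 20066 genes, 3.61%, were lower at that level), and the median difference was -1.48 against 0.03 over all genes. None passed the edgeR test. In DESeq2 9 were called, against 64 of all 20066 genes (0.319%), and 6 in edgeR without lean replicate 6, against 36 of 20177. The list was written with earlier results of these data known, so its direction is no independent evidence. Adora2a, the adenosine receptor of indirect-pathway neurons (chromosome 20, 14265251 to 14282873), had a median of 374 counts in RYGB and 1567 in lean libraries, a difference of -2.28. Drd1, the dopamine D1 receptor of direct-pathway neurons (chromosome 17, 11099736 to 11104352), had medians of 694 and 2074 counts and a difference of -2.04. Ppp1r1b, which encodes the dopamine-regulated phosphatase inhibitor DARPP-32, had medians of 4276 and 8519 and a difference of -1.48.

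The markers of cortex and hippocampus had a median difference of -0.29, which was -1.50 without RYGB replicate 6, 0.61 without lean replicate 2, 1.13 without lean replicates 2 and 5 and -0.20 without RYGB 6 and lean 2.

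The summed level of the striatal markers was 366 to 862 CPM in RYGB libraries, with a median of 574. It was 609, 781, 960, 1393, 2497 and 2619 CPM in the 6 lean libraries, of which 4 were above every RYGB library. In sham libraries it ran from 296 to 1376 CPM. Serpina9 was at 0 in all 17 libraries and was not tested. The mean log2 level of the striatal markers was then used as a covariate, chosen after seeing the data. With it, 306 genes (1.52%) instead of 1213 had an unadjusted p under 0.05 in edgeR and 0 were regulated. Hypothalamus and striatum lie close together in the brain, and whether the lean libraries held more neighbouring tissue or the cells held more of these transcripts cannot be told apart in bulk RNA. Without lean replicates 2 and 5 the median of the list was -1.29.

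**Figure D3:**
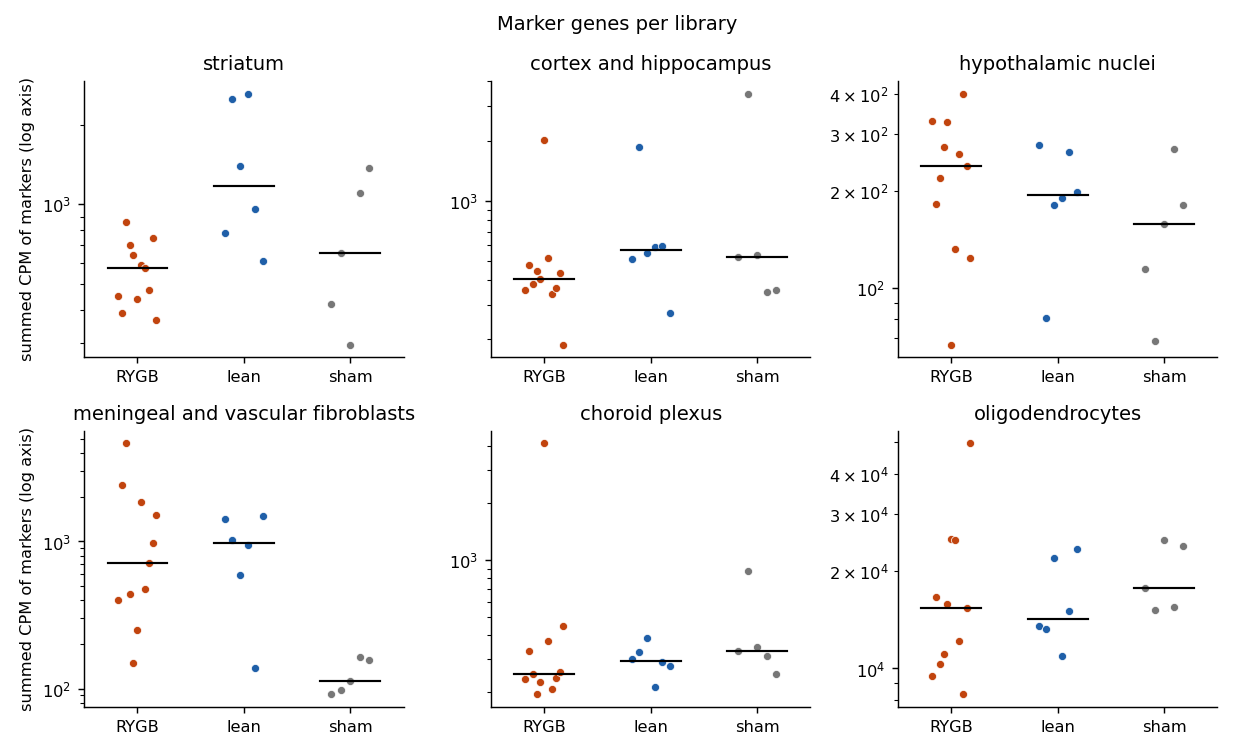
Summed CPM of marker genes per library (log axis) for 6 of the marker lists, in 11 RYGB, 6 lean and 5 sham animals of batch A, with black bars at the medians. Striatal markers lie highest in lean libraries (up to 2619 CPM), single libraries stand apart for cortex and choroid plexus, and meningeal markers are low in all 5 sham libraries (91.6 to 164 CPM).

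No peptide that drives or restrains feeding passed the test between RYGB-treated and lean animals, and most were too variable for a close bound. Npy (chromosome 4, 79557856 to 79565059) had 201, 391 and 834 counts as the lowest, median and highest RYGB library and 219, 507 and 1125 in lean animals (log2 difference -0.39, 95% interval -1.12 to 0.35). The 2 groups overlapped, with 3 RYGB libraries below the lowest lean one. Agrp (chromosome 19, 37525941 to 37584875) was low and uneven, with 7.87, 46.9 and 585 counts in RYGB and 11.2, 22.2 and 106 in lean animals, and 3 RYGB libraries lay above every lean library. Its difference was 2.07 (95% interval 0.20 to 3.94, adjusted p 0.737 by edgeR). Pomc (chromosome 6, 28382937 to 28388771), which also marks pituitary cells, spread from 49.4 over 910 to 31450 counts in RYGB and from 84.6 over 1116 to 3652 in lean animals, with a difference of 1.69 (-0.85 to 4.23) that was 0.40 without RYGB replicate 3. Cartpt had medians of 2975 and 2623 counts (0.59, -0.50 to 1.67).

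Several peptides of the lateral and paraventricular hypothalamus were spread over orders of magnitude in lean animals. Hcrt (chromosome 10, 88669216 to 88670430), which encodes the wake- and feeding-promoting orexins, had 0, 1.86, 429, 595, 2290 and 4251 counts in the 6 lean libraries and 152 to 7128 in RYGB (median 2776). Pmch, the precursor of melanin-concentrating hormone (chromosome 7, 28655206 to 28656522), had 114, 131, 1227, 12987, 13139 and 28626 counts in lean animals and 3387 to 75163 in RYGB (median 20566). In both genes the lowest 2 lean libraries were replicates 2 and 5, which lay below every RYGB library, as did lean replicate 1 for Pmch. The same 2 libraries were lowest for Oxt, for Avp (vasopressin) with 32.0 and 72.5 counts, and for Trh (thyrotropin-releasing hormone) with 50.1 and 81.8.

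The estimates for Hcrt, Pmch, Oxt, Avp and Trh were between 0.66 and 1.43 log2 units, with 95% intervals that all included 0. Without lean replicates 2 and 5 they were between 0.07 and 0.83. These 2 libraries were chosen after their low values were seen, and no RYGB library was left out with them. Smaller estimates for these genes therefore followed from the choice. Crh, the corticotropin-releasing hormone at the head of the stress axis, had medians of 134 and 135 counts and a difference of 0.09 (-0.55 to 0.72). Over the whole lists, 0 of 9 hunger-promoting and 0 of 19 satiety-promoting peptides passed the test. Their median differences were 0.47 and 0.50, against 0.03 over all genes, and were 0.05 and 0.17 without lean replicates 2 and 5. For the markers of hypothalamic nuclei, 20 of 24 were higher in RYGB, with a median of 0.85 that was 0.30 without these 2 libraries.

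Receptors of feeding and gut peptides were measured in 43 genes, of which 31 were higher and 12 lower in RYGB, none past the test, where 11492 of all 20066 genes had higher estimates. At an unadjusted p under 0.05, 4 were higher and 3 lower, against 2.44% and 3.61% of all genes. Mc3r and Mc4r, the melanocortin receptors on which POMC and AgRP peptides act, had opposite signs. Mc3r had 14, 107 and 247 counts in RYGB and 0, 54.6 and 152 in lean animals (0.96, 95% interval -0.35 to 2.28). Mc4r had 49.4, 117 and 206 counts in RYGB and 98.2, 200 and 245 in lean animals (-0.55, -1.18 to 0.07). Npy4r, the receptor of pancreatic polypeptide, was close to the detection limit with 4.30 to 28.4 counts in RYGB and 0 to 10.8 in lean animals, and 7 of 11 RYGB libraries were above all lean ones. It passed the filter on low counts mainly through RYGB, with 7 RYGB libraries and 1 lean library above 10 counts, so its estimate of 1.58 is a description.

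The leptin receptor Lepr (chromosome 5, 120503475 to 120682281) had 105, 207 and 862 counts in RYGB and 108, 242 and 271 in lean animals, and the 5 sham libraries had 138, 48.5, 122, 81.2 and 54.9. RYGB and lean libraries overlapped, 4 RYGB libraries exceeded every lean one, and 1 RYGB library was below all of them. The RYGB-lean difference was 0.47 (-0.39 to 1.34), and 0.14 without RYGB replicate 3 and 0.31 without lean replicate 5. The highest Lepr libraries, RYGB replicates 3, 2 and 7 with 862, 441 and 394 counts, also had the highest levels of meningeal fibroblast markers, 4640, 2402 and 1860 CPM, whose part in the result was not tested. Side by side in the fit of all 3 groups, the difference from sham was 1.70 for RYGB (adjusted p 0.0597 by edgeR) and 1.23 for lean animals (adjusted p 0.371). These comparisons share their animals and are not independent of each other.

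The insulin receptor Insr had medians of 672 counts in RYGB and 647 in lean animals (0.15, -0.48 to 0.79). Prlr, the prolactin receptor and also a choroid plexus marker, had 18.3 to 157 counts in RYGB and 5.01 to 80.4 in lean animals (1.15, 0.10 to 2.20). It was among 3 genes named by the study that were upregulated in RYGB over sham in the same fit, with Htr2a and Glra3, each at an adjusted p of 0.0429 by edgeR. Their RYGB-sham differences were 2.27, 1.97 and 2.80, and their lean-sham differences 1.13, 2.46 and 2.45, at adjusted p of 0.456, 0.235 and 0.240. These 3 calls belong to a count that was 0 without any of several single animals, as given with the sham comparison, and 1 without RYGB 6, lean 2 and sham 2.

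Receptors for serotonin, which restrains feeding, and for glycine were 17 genes, 8 higher and 9 lower in RYGB, with none past the edgeR test. At an unadjusted p under 0.05 in edgeR, 0 were higher and 5 lower, against 2.44% and 3.61% of all genes. Htr1b, Htr2a and Htr5a had RYGB-lean differences of 0.04, -0.48 and -0.04, and Glra1, Glra3 and Glra4 of 0.73, 0.37 and -0.31, with all 6 intervals including 0. The lowest p in the list belonged to Htr6 and Htr1d, both named after their values were seen. Htr6 (chromosome 5, 157501202 to 157518870) had 60.1, 150 and 220 counts in RYGB and 158, 359 and 805 in lean animals (-1.55, adjusted p 0.173 by edgeR), and Htr1d medians of 36.7 and 101 counts (-1.38, adjusted p 0.197). Htr6 is known to be abundant in the striatum, and both receptors were called by DESeq2 and by edgeR without lean replicate 6. Tph2, the enzyme that makes serotonin in neurons (chromosome 7, 58042279 to 58149220), had 6.77, 19.7 and 39.2 counts in RYGB and 28.2, 36.7 and 64.1 in lean animals. In Tph2 9 of 11 RYGB libraries were below the lowest lean library (-1.07, -1.76 to -0.37, adjusted p 0.436 by edgeR).

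Sdhb, Sdhc and Sdhd, subunits of succinate dehydrogenase in the respiratory chain, had differences near 0 within narrow intervals. Sdhb had medians of 3654 and 4004 counts and a difference of -0.03 (-0.31 to 0.25), Sdhc of -0.06 (-0.32 to 0.20) and Sdhd of -0.02 (-0.33 to 0.30). The study also named 3 genes that were too low to be tested for RYGB against lean, with highest counts over RYGB and lean libraries of 18.3 for Ffar4, 16.7 for Ucn and 15.6 for Mrap.

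**Figure D4:**
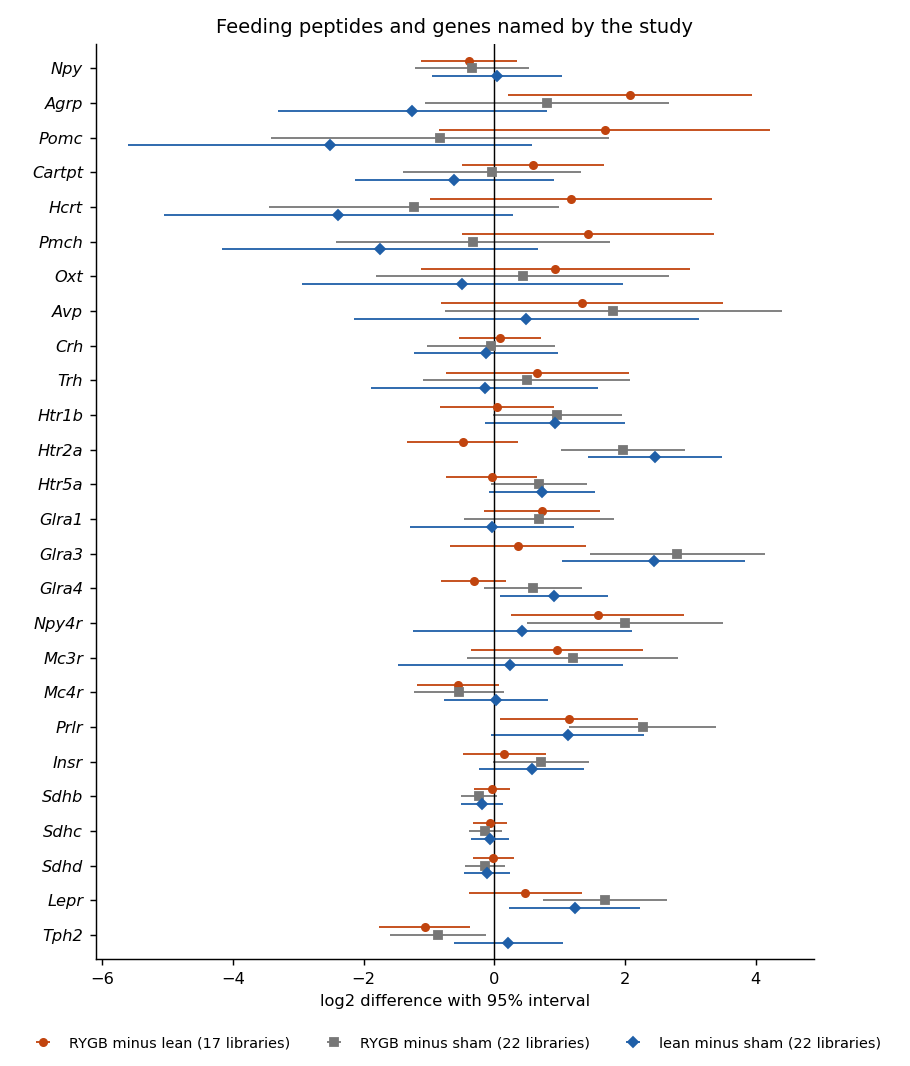
Log2 differences with 95% intervals of the feeding peptides and the tested genes named by the study, for RYGB minus lean (17 libraries) and, from the fit of all 3 groups, RYGB minus sham and lean minus sham. Peptides have wide intervals around 0, and Sdhb, Sdhc and Sdhd narrow ones. The estimates of Htr2a, Glra3 and Lepr lie above 0 in both comparisons with sham while RYGB minus lean includes 0. Those of Prlr also lie above 0 in both, but its RYGB minus lean interval excludes 0.

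Genes that respond to acute signals were looked at next. Immediate early genes, which neurons switch on within minutes of activity, were lower in RYGB in 19 of 20 cases, with a median difference of -0.54, and 4 of the 20 were lower at an unadjusted p under 0.05 against 3.61% of all genes. Egr2 had 31.9, 48.0 and 392 counts in RYGB and 55.3, 133 and 1446 in lean animals (-1.77), and Fos had 426, 895 and 1789 in RYGB and 500, 959 and 3009 in lean animals (-0.39, -1.13 to 0.35). None passed the edgeR test. The direction of the list rested on lean replicates 2 and 5, without which the median was 0.08, and it was -0.77 without RYGB replicate 6. Arc alone was called by DESeq2, which replaced its outlying counts, at -2.28 against -0.86 in edgeR.

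Genes of the ER stress response were higher in RYGB in 16 of 19 cases, with a median of 0.21, where 11492 of all 20066 genes were higher. At an unadjusted p under 0.05 there were 5 higher, namely Xbp1, Herpud1, Hspa5, Hsp90b1 and Pdia4, against 2.44% of all genes. Herpud1, which helps to clear misfolded proteins from the ER, had 1860, 2186 and 2635 counts in RYGB and 1408, 1810 and 2034 in lean animals, and 9 of 11 RYGB libraries lay above all lean ones (0.31, 0.12 to 0.51, adjusted p 0.373 by edgeR). Hspa5, the ER chaperone BiP, had medians of 15704 and 11792 counts (0.28, 0.03 to 0.54). All 19 differences were at most 0.31 log2 units in size. The RYGB-sham median of the list was 0.10 and the lean-sham median -0.12. With the striatal level as a covariate the RYGB-lean median was 0.05.

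Genes induced by glucocorticoids, the adrenal hormones that rise in fasting and stress, were higher in RYGB in 13 of 16 cases (median 0.40), with 4 at an unadjusted p under 0.05, against 11492 of 20066 and 2.44% for all genes. Pdk4, which spares glucose by blocking pyruvate oxidation, had 112, 212 and 468 counts in RYGB and 69.1, 108 and 182 in lean animals (1.10, 0.33 to 1.87, adjusted p 0.505 by edgeR). Plin4, a lipid droplet coat protein, had medians of 226 and 129 counts (0.78, 0.26 to 1.31, adjusted p 0.482). Fkbp5 and Tsc22d3, classic targets of the glucocorticoid receptor, differed by 0.27 and 0.24 with intervals that included 0. The median was 0.47 without lean replicates 2 and 5.

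The lists of core metabolism were bounded closely. All 74 tested genes of oxidative phosphorylation, all 76 cytosolic ribosomal proteins and all 31 proteasome subunits had 95% intervals within 1 log2 unit of 0, against 80.3% of all genes. Their median RYGB-lean differences were -0.05, 0.13 and 0.03. In the fit of all 3 groups the RYGB-sham medians were -0.34, -0.15 and -0.25 and the lean-sham medians -0.27, -0.26 and -0.26, with no member regulated. The ribosomal median was 0.32 without lean replicate 6 and -0.24 with the striatal level as a covariate, so its size depended on the libraries and its sign on the model.

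For leptin and insulin signalling, 29 of 30 intervals lay within 1 log2 unit (median difference 0.04), and for AMPK and energy sensing 15 of 16 (0.03). Socs1, a brake on cytokine receptor signalling that leptin also uses, had the smallest p of the first list, with medians of 59.5 counts in RYGB and 41.0 in lean animals (0.51, 0.05 to 0.98, adjusted p 0.742 by edgeR).

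The sham-operated animals showed how the same libraries behaved against an obese reference. In the fit of 22 libraries and 20532 genes, RYGB differed from lean in 0 genes and from sham in 211 (1.03%), 177 upregulated (0.862%) and 34 downregulated, while lean differed from sham in 0 by edgeR and in 152 by DESeq2. At an unadjusted p under 0.05 these were 1050 genes (5.11%), 4403 (21.4%) and 2324 (11.3%). The counts against sham do not show that lean and RYGB animals differ from each other, for which the direct comparison stands. Leaving out any 1 of the 16 RYGB and sham animals moved the RYGB-sham count by over 1.5 times, to 0 for RYGB replicates 2, 7, 9 and 10 and sham replicate 2, to 4 for sham replicate 5, and at most to 620 for RYGB replicate 11. Without RYGB 6, lean 2 and sham 2, the libraries rich in cortex markers, the RYGB-sham count was 1. The lean-sham count was 10 without lean replicate 6.

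Meningeal fibroblast markers were high in both comparisons against sham. Their summed level was 150 to 4640 CPM in RYGB, 139 to 1496 in lean and 91.6, 97.7, 113, 157 and 164 in sham libraries. The median difference over the 15 tested markers was 3.52 for RYGB and 2.89 for lean against sham, and 0.45 for RYGB against lean. Against sham 11 and 0 of them were regulated, where 1.03% and 0% of all genes were. With the level of these markers as a covariate the RYGB-sham count was 0. In their summed level 10 RYGB libraries lay above every sham library, so this covariate cannot separate the marker level from the group. The part of meningeal tissue in the result was not tested.

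Batch B held 3 RYGB-treated and 6 sham-operated animals that are in none of the comparisons above, and gave genes chosen without the lean animals. There, 403 of 19279 genes (2.09%) were regulated, 386 upregulated and 17 downregulated, and 252 with the level of meningeal markers as a covariate. Among single animals left out, RYGB replicate 13 gave 1, RYGB replicate 12 gave 14, and sham replicates 7, 8 and 11 gave 647, 267 and 210.

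In batch A, 0 of these 386 genes were regulated between RYGB and lean, and 5 were higher at an unadjusted p under 0.05 (2.44% of all genes were). A 95% interval within 1 log2 unit was found for 299 of them, against 16114 of all 20066 genes (80.3%). Their median RYGB-lean difference was 0.12, against 0.03 for all genes. In the fit of all 3 groups they had a median of 0.74 for RYGB against sham, with 368 of 386 above 0 and 10 regulated. Of all 20066 genes, 9977 were above 0 and 206 regulated there. For lean against sham their median was 0.65, with 358 above 0, against 9863 of all genes. The medians of all genes were -0.00 and -0.01. Both comparisons share the same 5 sham libraries.

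The mean level of the 386 genes, as log2(CPM + 1), was 2.34, 3.85 and 4.30 as the lowest, median and highest RYGB library and 2.59, 3.88 and 4.14 in lean libraries. The sham libraries had 3.952, 3.15, 3.063, 2.697 and 2.631. All 5 sham values lay inside the ranges of RYGB and of lean libraries, sham replicate 1 above both medians and the other 4 below them. The lowest RYGB and lean values belonged to RYGB replicate 11 and lean replicate 6, the 2 libraries farthest out on the second principal component.

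Distances between libraries, as 1 minus the Pearson correlation of log2(CPM + 1) times 1000, averaged 28.2 among RYGB libraries, 27.7 among lean libraries and 28.7 between RYGB and lean libraries. RYGB and sham libraries were 37.4 apart, lean and sham 34.1, and sham libraries among themselves 33.5. Of the 11 RYGB libraries 9 were on average closer to lean than to sham, the exceptions being replicates 6 and 11. The nearest single library was another RYGB library for 9 of them, lean replicates 2 and 6 for RYGB replicates 6 and 11, and a sham library for none. These distances are a description of 22 libraries without a test.

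**Figure D5:**
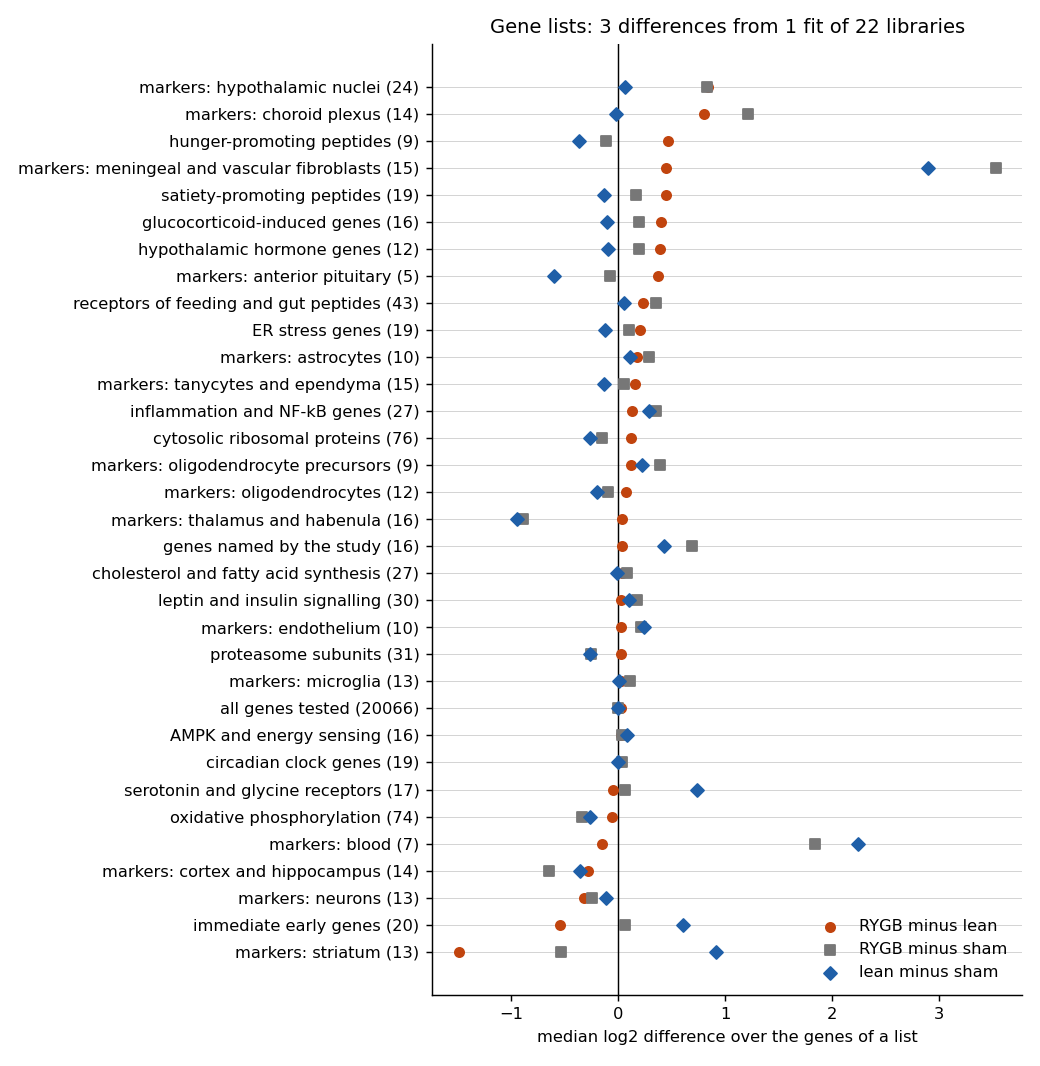
Median log2 difference over the genes of each list for RYGB minus lean, RYGB minus sham and lean minus sham, all from the fit of 22 libraries, with the number of genes tested in RYGB vs lean in parentheses. RYGB minus lean is farthest from 0 for striatal markers at the low end and markers of hypothalamic nuclei and choroid plexus at the high end, and meningeal markers lie near 3 in both comparisons with sham.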

How the data were processed

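Hypothalamic RNA of 65 rats was sequenced, each animal giving 1 library. Used here were 11 RYGB, 6 lean and 5 sham libraries of batch A and 3 RYGB and 6 sham libraries of batch B, grouped by the labels. The authors made stranded poly-A libraries, trimmed single-end reads with cutadapt (1.16 in the submitters' processing notes, among several versions in the study's methods), mapped them with STAR 2.7.2b to Rnor_6.0 and counted them by strand with featureCounts 1.6.4. Reads that fit several places or genes were split between them, which makes genes with close copies uncertain. What the authors deposited are estimated counts for each gene, without normalization, of which 31.2% of the nonzero values in the 17 libraries were not whole (tolerance 1e-06).

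Counts were rounded and analysed in R 4.3.3 with edgeR 4.0.16 (filterByExpr with a minimum count of 10 and minimum total of 15, TMM, robust quasi-likelihood test). Of 38513 genes, 20066 were tested for RYGB vs lean in the 17 libraries alone, with 15 residual degrees of freedom. A gene was called regulated when its adjusted p (Benjamini-Hochberg) was below 0.05 and its log2 fold change exceeded 1 in either direction. DESeq2 1.42.0 gave an alternative and the size factors. The steps were tested on simulated data. Pairwise correlations of the 17 libraries ran from 0.968 to 0.997. P-values measure the spread between animals. Summaries of libraries used Python 3.11.15 with numpy 2.4.6 and pandas 2.3.3.

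Named genes were the 5 of smallest p in each direction, since fewer than 5 were regulated, without uncharacterised loci and symbols of several genes, then 10 feeding peptides and the genes named by the study. Of these, 1 gene is not reported here. Other genes named from a list were chosen after their values were seen. Members and lists were chosen with earlier results of these data known, and the study picked its own genes on these libraries. A planned reading of lean-sham genes in batch B was void because 0 were regulated. Alternatives were other scaling, no filter, DESeq2, unrounded counts, more libraries in the fit, covariates, the replicate number as a block, and libraries left out.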

Additional observations from a re-analysis of the deposited data

Results flagged for a closer look

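In 12 of 102 sets of 4 to 10 libraries, 1 library stood far from the others of its group, where chance alone flags about 1 in 20 groups. Among lean animals, replicate 6 had 106 counts of Agrp against at most 25.5 in the others, and 101 CPM of blood markers against at most 34.9. Lean replicate 2 had 1870 CPM of cortex and hippocampus markers against at most 593, and 1040 CPM of thalamus and habenula markers against at most 533.

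Among sham animals, replicate 4 had 284 counts of Agrp against at most 52.7, and replicate 3 had 32900 counts of Pomc against at most 5890. Sham replicate 1 stood high for 3 receptors, with 214 counts of Htr1b against at most 71.2, 24.8 counts of Prlr against at most 14.3, and 792 counts of Insr against at most 360. Sham replicate 2 had 69.3 counts of Tph2 against at most 34.0, 877 CPM of choroid plexus markers against at most 345, and 3470 CPM of cortex and hippocampus markers against at most 533. These libraries were kept, and the counts of regulated genes against sham without RYGB 6, lean 2 and sham 2 were 1 for RYGB and 0 for lean animals. The group of 11 RYGB libraries was too large for this test.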

How the results depend on the processing

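The number of regulated genes between RYGB and lean animals was 0 in edgeR with DESeq2 size factors, no filter, unrounded counts, more libraries, covariates and the replicate block. It was 64, 5 and 58 by DESeq2 without shrinkage, with shrinkage and with outlying counts kept, 38 without RYGB 11 and lean 6, 7 without these and RYGB 6 and lean 2, and 0 to 36 with single animals left out. DESeq2 and edgeR without lean 6 shared 27 genes, 42.2% of the 64 and 75% of the 36. RYGB vs sham gave 37 without the filter, 734 by DESeq2, 1 without RYGB 6, lean 2 and sham 2, 0 with the meningeal covariate, and 0 to 620 with single animals left out. Lean vs sham gave 152 by DESeq2 and 0 to 10. Batch B gave 678 by DESeq2, 252 with the covariate and 1 to 647. The cause was not tested.

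Same-numbered RYGB and lean libraries did not all deviate together. Their correlations ran from -0.28 to 0.64 with a median of 0.20, with 3 of 6 over 0.1 and 2 of 6 highest with their own number. The numbers were not taken as pairs in the main test. With the replicate block, 0 genes were regulated for RYGB vs lean, 363 for RYGB vs sham and 2 for lean vs sham, and Crh and Htr5a had log2 differences of -0.072 and 0.16.

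Of 36 genes taken by the rule, 25 kept their sign in every alternative that could be fitted, which for Chia left out 6 of 33. The others, none past the test in the main analysis, changed sign as follows. With single animals left out, the log2 difference ran from -0.11 to 0.21 for Crh, -0.17 to 0.25 for Htr1b, -0.22 to 0.12 for Htr5a, -0.033 to 0.29 for Insr, -0.13 to 0.048 for Sdhb, -0.17 to 0.0015 for Sdhc and -0.13 to 0.060 for Sdhd. Without lean 2 and lean 5 it was 0.052 for Npy, -0.013 for Htr1b, 0.098 for Htr5a, 0.0063 for Sdhb and 0.061 for Sdhd. With choroid plexus, meningeal and pituitary covariates it was -0.089 for Pomc, 0.036 for Htr5a and 0.0075 for Sdhd. With the striatal covariate it was -0.24 for Crh, 0.22 for Htr2a, 0.26 for Htr5a and 0.031 for Glra4. Without RYGB 6 and lean 2 it was -0.000294 for Crh and 0.0079 for Sdhd. Without RYGB 11 and lean 6 it was -0.069 for Htr1b, and without all 4 of these libraries -0.081 for Htr1b and -0.057 for Insr. With 11 and 6 animals and a median interval of 0.392 log2 units to each side, smaller differences were not detectable for a typical gene.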

Other observations

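Several further lists lay close to 0 between RYGB-treated and lean animals, with 0 genes past the edgeR test in each. Circadian clock genes had a median log2 difference of 0.03, with 18 of 19 intervals within 1 log2 unit of 0. Genes of cholesterol and fatty acid synthesis had a median of 0.04, with 26 of 27 intervals within 1 log2 unit, and microglial markers a median of 0.03 with 13 of 13. Inflammation and NF-kB genes were less tightly bounded, with 17 of 27 intervals within 1 log2 unit, a median of 0.13 and 0 genes at an unadjusted p under 0.05.

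Glial markers had a few members with small p, chosen after their values were seen. Gjb6, the astrocyte gap junction protein connexin, had 1748, 2593 and 7396 counts as the lowest, median and highest RYGB library and 1318, 1775 and 2254 in lean animals, and 9 of 11 RYGB libraries lay above every lean library (log2 difference 0.80, adjusted p 0.501 by edgeR). Of 15 tanycyte and ependymal markers, 10 were higher and 5 lower in RYGB with a median of 0.16, and 1 was at an unadjusted p under 0.05. It was Crym, a thyroid hormone-binding protein of tanycytes that some neurons also express, with medians of 1608 counts in RYGB and 2669 in lean animals (-0.78, adjusted p 0.531 by edgeR).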
